A study of Mus musculus with 12 samples.

Results

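The 10 genes described here are macrophage genes in ribosome-bound RNA of the newborn mouse inner ear, chosen by symbol: Csf1r, Cx3cr1, C1qa, C1qb, C1qc, Lyz2, Fcgr3, Mrc1, Adgre1 and Aif1. All 10 were listed in both organs, among 28342 genes listed in the cochlea and 24726 in the vestibule, and all 10 passed the filter on low values in both. The tissue came at postnatal day 0 to 1 from mutants (Gfi1Cre/Cre) and from heterozygotes (Gfi1Cre/+), with 3 libraries per genotype and organ, 12 in all, called replicates 1 to 3 as numbered in the labels. Every animal group also carried RiboTagHA/HA, an allele that, once Cre has acted, gives ribosomes an HA tag by which they and their messenger RNA are pulled down. Cre was driven by the Gfi1 locus, which is active in hair cells and is known to act in blood-forming cells too. Mutants had no unmodified Gfi1 allele and carried Cre on both copies, so a difference between the groups and the dose of Cre cannot be told apart. The labels call the material enriched for hair cells. The comparison asks whether macrophage transcripts, which are not those of a hair cell, differed with genotype in each organ.

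Macrophages are phagocytes of the myeloid lineage that settle in most tissues before birth, the cochlea and vestibule among them, where they clear dying cells and debris. Their survival depends on signalling through the receptor encoded by Csf1r, and their identity on the transcription factor PU.1. Complement C1q, lysozyme, Fc receptors and the mannose receptor are among the molecules with which they bind and digest what they take up. In bulk RNA, fewer cells of a type and less RNA per cell cannot be told apart, and how far each transcript was carried on tagged ribosomes or came along untagged was not tested.

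Values are CPM, read counts scaled to a common library total, and a fold change is the mutant mean minus the heterozygous mean of log2(CPM + 1) with its standard error (SE). A gene is called when limma's test over all tested genes gives a Benjamini-Hochberg adjusted p under 0.05. Cochlear libraries held 7531518 to 9363796 reads, vestibular ones 18951026 to 29370267, and the 10 genes had 140 to 13662 reads each per cochlear library and 697 to 81917 per vestibular library. Gfi1, as a check of the labels, had 75.1, 64.3 and 69.1 CPM in mutant cochleae against 165, 106 and 126 CPM in heterozygous ones, and 236, 198 and 208 CPM in mutant vestibules against 534, 449.8 and 483 CPM in heterozygous ones. The highest mutant library was below the lowest heterozygous one in both organs. The labels do not say which part of Gfi1 is missing from the Cre allele. Cochlear and vestibular libraries were made with different kits, so that organ and kit cannot be told apart and levels are described within an organ. The replicate 1 libraries of both genotypes stood apart from the others in the vestibule, as described for single genes with the vestibular results.

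The 10 genes lie at 8 places in the genome (GRCm38, GENCODE M21). C1qb, C1qc and C1qa follow one another on the minus strand of chromosome 4 within 18.7 kb, between 136880129 and 136898803. Lyz2 lies on chromosome 10 from 117277331 to 117282321, Fcgr3 on chromosome 1 from 171051174 to 171064935, Cx3cr1 on chromosome 9 from 119901616 to 120069879 and Aif1 on chromosome 17 from 35170991 to 35176068, all on the minus strand. Mrc1 lies on chromosome 2 from 14229392 to 14332057 and Adgre1 on chromosome 17 from 57358691 to 57483527, both on the plus strand. Promoters from RefSeq (GRCm38.p6) were found for 7 of the 10 genes, all but Csf1r, C1qa and Adgre1. The letters GAGGAA, the core that PU.1 binds, were searched on both strands in the 250 bases before each start, with a match in 5 of the 7 and in 23.1% of all 27025 promoters of that table. AATCNNNGC, the core known for GFI1, was found in 1 of the 7, Aif1, and in 9.0% of all promoters, and the 2 motifs did not overlap there. The promoters printed are those of the genes whose levels the results turn on: Lyz2 and Fcgr3, which were called in the cochlea, their neighbour in rank C1qb, and Cx3cr1 and Aif1, which were called in the vestibule when replicate numbers were used as pairs. Capitals mark the matches, 5′ to 3′ on the strand of the gene, with the last base next to the start. They are chr10:117282273-117282522 for Lyz2, chr1:171059404-171059653 for Fcgr3 (1 of 2 starts in that table), chr4:136886201-136886450 for C1qb, chr9:120068297-120068546 for Cx3cr1 and chr17:35176053-35176302 for Aif1, all on the minus strand.
Lyz2: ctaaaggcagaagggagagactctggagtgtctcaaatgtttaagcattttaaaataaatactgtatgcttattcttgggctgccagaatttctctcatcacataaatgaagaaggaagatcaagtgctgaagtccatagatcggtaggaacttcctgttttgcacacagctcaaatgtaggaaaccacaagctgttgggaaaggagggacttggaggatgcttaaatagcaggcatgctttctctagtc
Fcgr3: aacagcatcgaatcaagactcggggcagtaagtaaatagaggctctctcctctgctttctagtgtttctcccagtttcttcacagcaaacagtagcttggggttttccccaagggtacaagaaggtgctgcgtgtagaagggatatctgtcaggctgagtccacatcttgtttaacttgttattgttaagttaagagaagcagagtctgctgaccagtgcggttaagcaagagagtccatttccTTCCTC
C1qb: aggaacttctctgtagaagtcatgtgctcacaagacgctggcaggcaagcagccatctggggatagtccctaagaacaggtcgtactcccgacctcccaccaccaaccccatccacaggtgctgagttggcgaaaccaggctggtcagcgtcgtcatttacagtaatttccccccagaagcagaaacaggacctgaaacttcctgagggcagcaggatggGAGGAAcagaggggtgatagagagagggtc
Cx3cr1: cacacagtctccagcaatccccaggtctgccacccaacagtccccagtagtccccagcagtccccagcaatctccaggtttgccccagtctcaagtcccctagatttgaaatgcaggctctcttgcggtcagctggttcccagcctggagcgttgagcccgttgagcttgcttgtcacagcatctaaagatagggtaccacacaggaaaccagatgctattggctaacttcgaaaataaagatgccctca
Aif1: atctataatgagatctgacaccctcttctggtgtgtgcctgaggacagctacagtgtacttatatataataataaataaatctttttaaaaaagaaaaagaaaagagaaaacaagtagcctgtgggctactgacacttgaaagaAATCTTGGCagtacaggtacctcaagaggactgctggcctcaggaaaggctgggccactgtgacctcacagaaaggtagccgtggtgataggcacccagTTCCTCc

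The match to GAGGAA began 6 bases before the start in Fcgr3, 30 in C1qb and 7 in Aif1, and the match to AATCNNNGC in Aif1 began 106 bases before it. Neither set of letters was found in the printed windows of Lyz2 and Cx3cr1. C1qc had a match 193 bases before its start, and Mrc1 had 3.

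In the cochlea 2 of the 10 genes rose in mutants and none fell. They were Lyz2, which encodes the lysozyme of macrophages, and Fcgr3, which encodes a receptor for the constant part of antibodies. Of all 17985 tested genes, 4.41% were called and 1.90% were called higher. Fold changes were positive for 9 of the 10 genes, against 59.2% of all tested genes, with a median of 0.25 beside 0.05 over all tested genes. The mutant libraries lay above the heterozygous ones without overlap for Lyz2, Fcgr3 and C1qb, 3 of 10 genes, against 9.74% of all tested genes, and below them for none, against 7.77%.

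Lyz2 had 259, 218 and 261 CPM in mutant cochleae, against 149.5, 141 and 166 CPM in heterozygous ones. Every mutant library lay above every heterozygous one, and the lowest mutant value exceeded the highest heterozygous value by more than the range of the heterozygous libraries. The means were 246 ± 24.1 CPM in mutants and 152 ± 12.98 CPM in heterozygotes (SD, n = 3 each), a log2 fold change of 0.69 (SE 0.13, limma adjusted p = 0.00491). The call held without each single library (highest adjusted p 0.0353) and with edgeR's quasi-likelihood test (adjusted p = 0.00541). Libraries of the same number differed by 0.79, 0.63 and 0.64 on the log2 scale. Lyz2 shares 15.4% of its 50-base windows with its neighbour Lyz1, the lysozyme gene of intestinal Paneth cells, and Lyz1 had 0.125 to 0.774 CPM in the cochlear libraries.

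Fcgr3 had 55.1, 62.3 and 68.6 CPM in mutant cochleae, against 29.0, 46.7 and 38.9 CPM in heterozygous ones. The groups did not overlap, and heterozygous replicate 1 was the lowest library. The means were 62.0 ± 6.73 CPM in mutants and 38.2 ± 8.91 CPM in heterozygotes (SD, n = 3 each), a log2 fold change of 0.71 (SE 0.17, limma adjusted p = 0.0342). The call was lost with edgeR (adjusted p = 0.0507) and without a filter on low values (0.0592). It was also lost without mutant replicate 1, 2 or 3 (0.0603, 0.123 and 0.123), without heterozygous replicate 1 (0.154) and without both replicate 3 libraries (0.100). Fcgr3 shares 9.58% of its 50-base windows with Fcgr2b, the inhibitory Fc receptor beside it on the chromosome, so that reads from such windows may belong to either. Fcgr2b also rose in mutant cochleae, with 60.0 ± 4.49 CPM in mutants and 40.2 ± 4.03 CPM in heterozygotes (log2 fold change 0.57, SE 0.14, limma adjusted p = 0.0332), a call lost when any 1 of the 6 libraries was left out (0.0566 to 0.148) and with edgeR (0.0692).

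**Figure D1:**
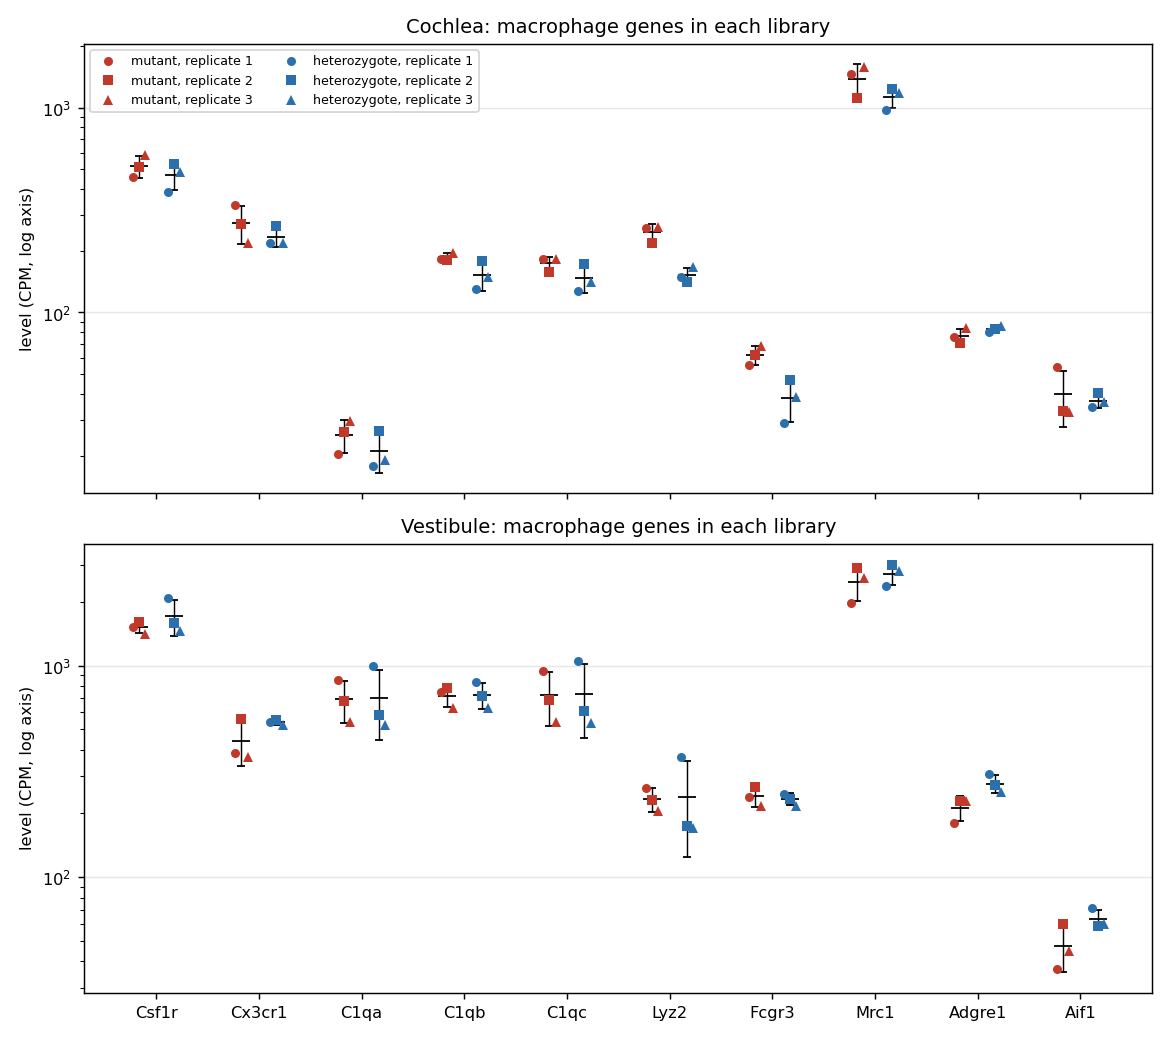
Level of each of the 10 macrophage genes in every library (CPM, log axis), mutants in red on the left of each pair and heterozygotes in blue on the right, with symbols for replicates 1 to 3 and black bars for mean ± SD (n = 3). In the cochlea the mutant symbols of Lyz2 and Fcgr3 sit above all heterozygous ones. In the vestibule the circles of replicate 1 sit high for C1qa, C1qc and Lyz2 and low for Mrc1 in both genotypes.

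The 3 subunits of complement C1q, the molecule that tags debris and synapses for removal, did not pass the test in the cochlea. C1qb had 182, 181 and 195 CPM in mutants, against 130.1, 179 and 149 CPM in heterozygotes. Its groups did not overlap, but mutant replicate 2 and heterozygous replicate 2 differed by less than 2 CPM. The log2 fold change was 0.30 (SE 0.13, limma adjusted p = 0.395, unadjusted p = 0.0462). C1qc had 182, 157 and 182 CPM in mutants and 128, 173 and 142 CPM in heterozygotes, with overlap, and a log2 fold change of 0.24 (SE 0.14, adjusted p = 0.564). C1qa was the lowest of the 10 in CPM, with 20.4, 26.1 and 29.4 CPM in mutants and 17.8, 26.3 and 19.1 CPM in heterozygotes, a log2 fold change of 0.26 (SE 0.20, adjusted p = 0.746).

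Among the receptors, Csf1r, the receptor for the growth factors CSF1 and IL34, had 461, 511 and 587 CPM in mutant cochleae, against 388, 530.3 and 482 CPM in heterozygous ones, with overlap (log2 fold change 0.16, SE 0.15, adjusted p = 0.820). Cx3cr1, the receptor for fractalkine, had 334, 269 and 217 CPM in mutants, against 218, 263 and 219 CPM in heterozygotes (0.21, SE 0.16, adjusted p = 0.721). Its replicate 3 libraries were nearly equal, and mutant replicate 1 alone lay clearly above the rest. Mrc1, the mannose receptor CD206 and the most abundant of the 10 in CPM, had 1451, 1111 and 1582 CPM in mutants, against 978, 1227 and 1176 CPM in heterozygotes (0.28, SE 0.17, adjusted p = 0.586). Adgre1, which encodes the antigen F4/80, was the only one of the 10 with a negative fold change, with 76.1, 71.2 and 83.8 CPM in mutants and 79.9, 83.1 and 85.6 CPM in heterozygotes (-0.11, SE 0.12, adjusted p = 0.873). Aif1, the actin-binding protein IBA1 by which microglia are often stained, had 54.0, 32.9 and 32.5 CPM in mutants and 34.4, 40.5 and 36.6 CPM in heterozygotes (0.06, SE 0.19, adjusted p = 0.973). Its sign rested on mutant replicate 1, without which the fold change was -0.18. Csf1r lies on the plus strand of chromosome 18 from 61100598 to 61132149, and 15.1% of its exon bases lie under Hmgxb3 on the opposite strand, and no source used here says whether the counting used strand.

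With replicate numbers as pairs, the same 2 genes were called higher in the cochlea and none lower, while the share of all tested genes called rose to 8.52%, 4.21% higher and 4.31% lower. Summed over the 10 genes, the level was 3073, 2639.6 and 3239 CPM in mutant cochleae and 2152, 2709.7 and 2514 CPM in heterozygous ones. The sums overlapped through mutant replicate 2 and heterozygous replicate 2.

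In the vestibule none of the 10 genes passed the test, where 3.50% of the 15595 tested genes were called, 2.41% higher and 1.09% lower. The tools edgeR and DESeq2 also called none of the 10 after adjustment. Fold changes were positive for 4 genes and negative for 6, against 41.5% positive among all tested genes, with a median of -0.07 beside -0.06 over all tested genes. With replicate numbers as pairs, 3 genes were called lower in mutants and none higher: Cx3cr1, Adgre1 and Aif1. In that paired fit 23.3% of all tested genes were called and 12.8% were called lower.

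Adgre1 had 181, 229 and 230.1 CPM in mutant vestibules, against 306, 272 and 253 CPM in heterozygous ones. It was the only one of the 10 whose groups did not overlap, with mutants below, as for 11.6% of all tested genes (22.3% in either direction). The means were 213 ± 28.1 CPM in mutants and 277 ± 26.8 CPM in heterozygotes (SD, n = 3 each), a log2 fold change of -0.38 (SE 0.14, limma adjusted p = 0.233, and 0.0152 in the paired fit). Aif1 had 36.8, 59.8 and 44.8 CPM in mutants, against 71.1, 58.7 and 60.1 CPM in heterozygotes. Mutant replicate 2 lay among the heterozygous libraries and the other mutant libraries below them (log2 fold change -0.44, SE 0.19, adjusted p = 0.308, and 0.0355 in the paired fit). Cx3cr1 had 387, 560.2 and 371 CPM in mutants, against 543, 554 and 522 CPM in heterozygotes. Again mutant replicate 2 lay with the heterozygous libraries (-0.32, SE 0.17, adjusted p = 0.417, and 0.0274 in the paired fit). The replicate 2 pair differed by 0.02 for Cx3cr1 and 0.03 for Aif1 on the log2 scale, so that these paired calls rest on replicates 1 and 3, and on a spread that limma shares across genes.

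The other surface receptors showed smaller differences in the vestibule. Csf1r had 1528, 1615 and 1415 CPM in mutants, against 2089, 1586 and 1462 CPM in heterozygotes (log2 fold change -0.16, SE 0.17, adjusted p = 0.735), and heterozygous replicate 1 stood alone above the rest. Mrc1 had 1979.6, 2893 and 2595 CPM in mutants, against 2384, 2976 and 2789 CPM in heterozygotes (-0.14, SE 0.19, adjusted p = 0.806). Each mutant library was below the heterozygous library of its number, and the replicate 1 libraries were the lowest of each genotype. Fcgr3, called in the cochlea, had 238, 267 and 216 CPM in mutant vestibules and 249, 234 and 218 CPM in heterozygous ones (0.04, SE 0.13, adjusted p = 0.930).

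C1qa, C1qc and Lyz2 varied more with replicate number than with genotype in the vestibule. C1qa had 853, 681 and 543 CPM in mutants and 992, 587 and 522 CPM in heterozygotes (log2 fold change 0.02, SE 0.26). C1qc had 943, 688 and 539.9 CPM in mutants and 1055, 608 and 537 CPM in heterozygotes (0.01, SE 0.29). Lyz2 had 265, 232 and 205 CPM in mutants and 371, 174 and 172 CPM in heterozygotes (0.06, SE 0.29). For all 3 the replicate 1 library was the highest of its genotype. C1qb, their neighbour in the case of C1qa and C1qc, had 751, 782 and 629 CPM in mutants and 833, 717 and 629 CPM in heterozygotes, with a log2 fold change of -0.01 (SE 0.15). The adjusted p of these 4 genes was between 0.955 and 0.995.

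**Figure D2:**
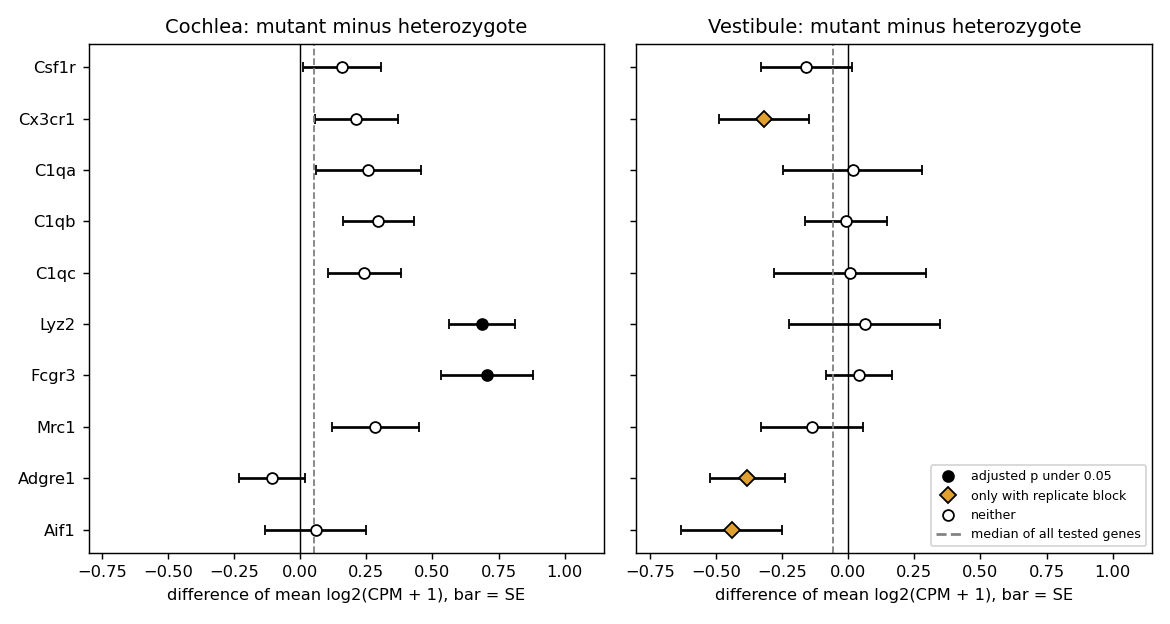
Log2 fold change, mutant minus heterozygote, of each of the 10 genes with its standard error (x axis, log2(CPM + 1) scale) in the cochlea and in the vestibule. Filled circles mark genes with an adjusted p under 0.05, diamonds those called only with replicate numbers as pairs, open circles the others, and the dashed line the median of all tested genes (0.05 and -0.06). Lyz2 and Fcgr3 stand to the right in the cochlea, and Cx3cr1, Adgre1 and Aif1 to the left in the vestibule.

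Whether the change differed between the organs was tested as the cochlear minus the vestibular fold change over all 12 libraries. None of the 10 genes passed this test, where 3.14% of 14674 genes did. After adjustment edgeR and DESeq2 likewise called none of the 10. The difference was 0.66 for Fcgr3 (SE 0.23, limma adjusted p = 0.173), 0.62 for Lyz2 (SE 0.33, adjusted p = 0.445) and 0.53 for Cx3cr1 (SE 0.25, adjusted p = 0.388). With replicate numbers as pairs within each organ these 3 passed, at adjusted p values of 0.00547, 0.0303 and 0.0497, and 13.3% of all genes did. All 10 differences were positive, against 61.9% of all genes, and the other 7 ranged from 0.24 to 0.50. Organ and library kit cannot be told apart in this difference either.

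To compare genes with one another, CPM was divided by the length of exon sequence in kb. In the cochlea Mrc1 was highest, with 217 ± 38.1 CPM per kb in mutants and 177 ± 20.7 in heterozygotes (SD, n = 3 each). Next came Lyz2 and C1qb, which changed places with genotype: Lyz2 had 187 ± 18.3 CPM per kb in mutants and 116 ± 9.86 in heterozygotes, and C1qb had 171 ± 7.50 in mutants and 140.2 ± 22.8 in heterozygotes. Csf1r and C1qc stood close together, at 89.9 ± 11.04 and 89.8 ± 7.26 CPM per kb in mutants and 80.9 ± 12.5 and 76.3 ± 12.0 in heterozygotes, less apart than their spread. Cx3cr1 followed with 60.7 ± 12.9 CPM per kb in mutants and 51.8 ± 5.70 in heterozygotes. C1qa, Fcgr3, Adgre1 and Aif1 all lay between 16.7 and 39.5 CPM per kb in every cochlear library, and Fcgr3, ninth in heterozygotes, was seventh in mutants.

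In the vestibule the order by mean was the same in both genotypes: C1qa, C1qb, Mrc1, C1qc, Csf1r, Lyz2, Fcgr3, Cx3cr1, Adgre1 and Aif1. The top and the bottom of it were 666 ± 149 CPM per kb in mutants and 674 ± 245 in heterozygotes for C1qa, and 30.8 ± 7.63 in mutants and 41.3 ± 4.45 in heterozygotes for Aif1. C1qa and C1qb, with 662 ± 74.6 CPM per kb in mutants and 668 ± 94.3 in heterozygotes, did not differ beyond their spread, nor did Mrc1 and C1qc, with 391 ± 73.1 and 375 ± 106 in mutants.

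The C1q protein is built of equal numbers of its A, B and C chains, so the ratio of the 3 transcripts per kb was examined in each library. In the vestibule C1qa over C1qb was 1.19 in mutant replicate 1 and 1.25 in heterozygous replicate 1, and 0.856 to 0.912 in the other 4 libraries. C1qc over C1qb was 0.707 and 0.713 in those same replicate 1 libraries and 0.478 to 0.496 in the others. C1qa over C1qc was 1.68 to 1.87 in all 6 libraries. Thus C1qa and C1qc moved together away from C1qb in replicate 1, in both genotypes, and the ratios overlapped between the genotypes. In the cochlea C1qc over C1qb was 0.491 to 0.562 in mutants and 0.537 to 0.552 in heterozygotes, and C1qa over C1qb was 0.117 to 0.158 in mutants and 0.135 to 0.153 in heterozygotes, again with overlap.

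**Figure D3:**
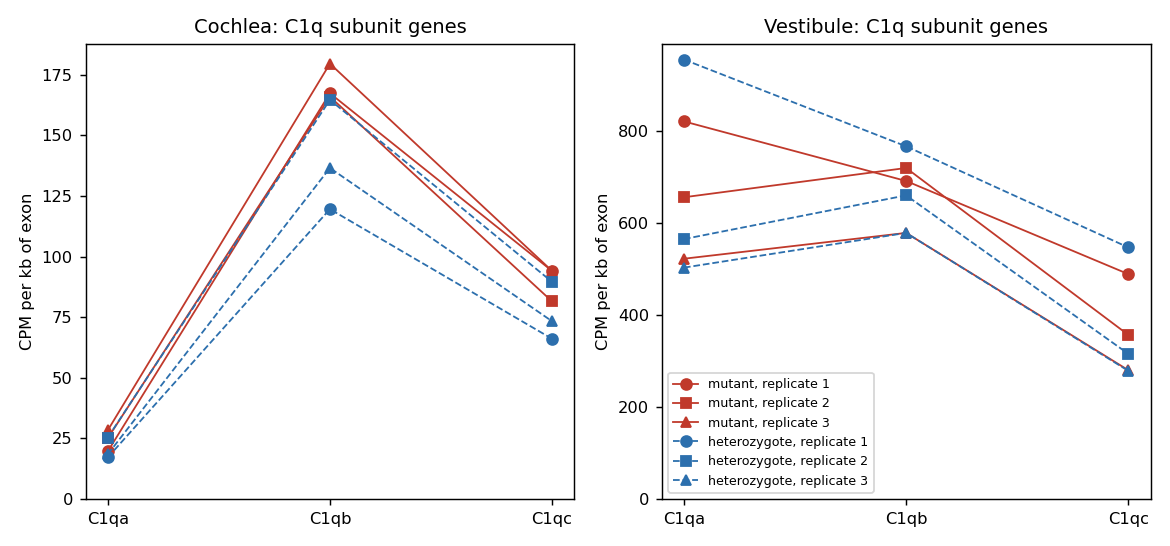
Level of the C1q subunit genes per kb of exon sequence (CPM per kb, linear axis from 0), with 1 line per library, mutants in solid red and heterozygotes in dashed blue. In the vestibule the replicate 1 lines (circles) start above their C1qb value, at ratios of 1.19 in the mutant and 1.25 in the heterozygote, while the other 4 start at or below it.

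Each gene was also set against the sum of the 10, which removes a difference common to all of them. Lyz2 made up 8.05% to 8.43% of the sum in mutant cochleae and 5.19% to 6.95% in heterozygous ones. Fcgr3 made up 1.79% to 2.36% in mutant cochleae and 1.35% to 1.72% in heterozygous ones, and Adgre1 2.48% to 2.70% in mutants and 3.07% to 3.71% in heterozygotes. None of these 3 pairs of ranges overlapped. In the vestibule Fcgr3 made up 3.18% to 3.34% in mutants and 2.79% to 3.04% in heterozygotes, Adgre1 2.52% to 3.39% in mutants and 3.44% to 3.54% in heterozygotes, and Aif1 0.514% to 0.747% in mutants and 0.756% to 0.838% in heterozygotes, again without overlap. The share of Fcgr3 was thus higher, and that of Adgre1 lower, in the mutant libraries of each organ. In CPM the genotypes overlapped for Fcgr3 in the vestibule (log2 fold change 0.04) and for Adgre1 in the cochlea (-0.11). Fcgr3 over Csf1r, a CPM ratio, was 0.117 to 0.122 in mutant and 0.0747 to 0.0881 in heterozygous cochleae, and 0.153 to 0.166 in mutant and 0.119 to 0.149 in heterozygous vestibules. Mrc1, the gene with the largest share in the cochlea, made up 42.1% to 48.9% of the sum in mutant and 45.3% to 46.8% in heterozygous cochleae. In the vestibule it made up 27.6% and 26.8% in the mutant and heterozygous replicate 1 libraries and 36.1% to 38.9% in the other 4. These shares were examined after the levels were known and were not tested. A share also depends on the levels of the other 9 genes, and no rate of non-overlap was computed for shares of other genes.

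**Figure D4:**
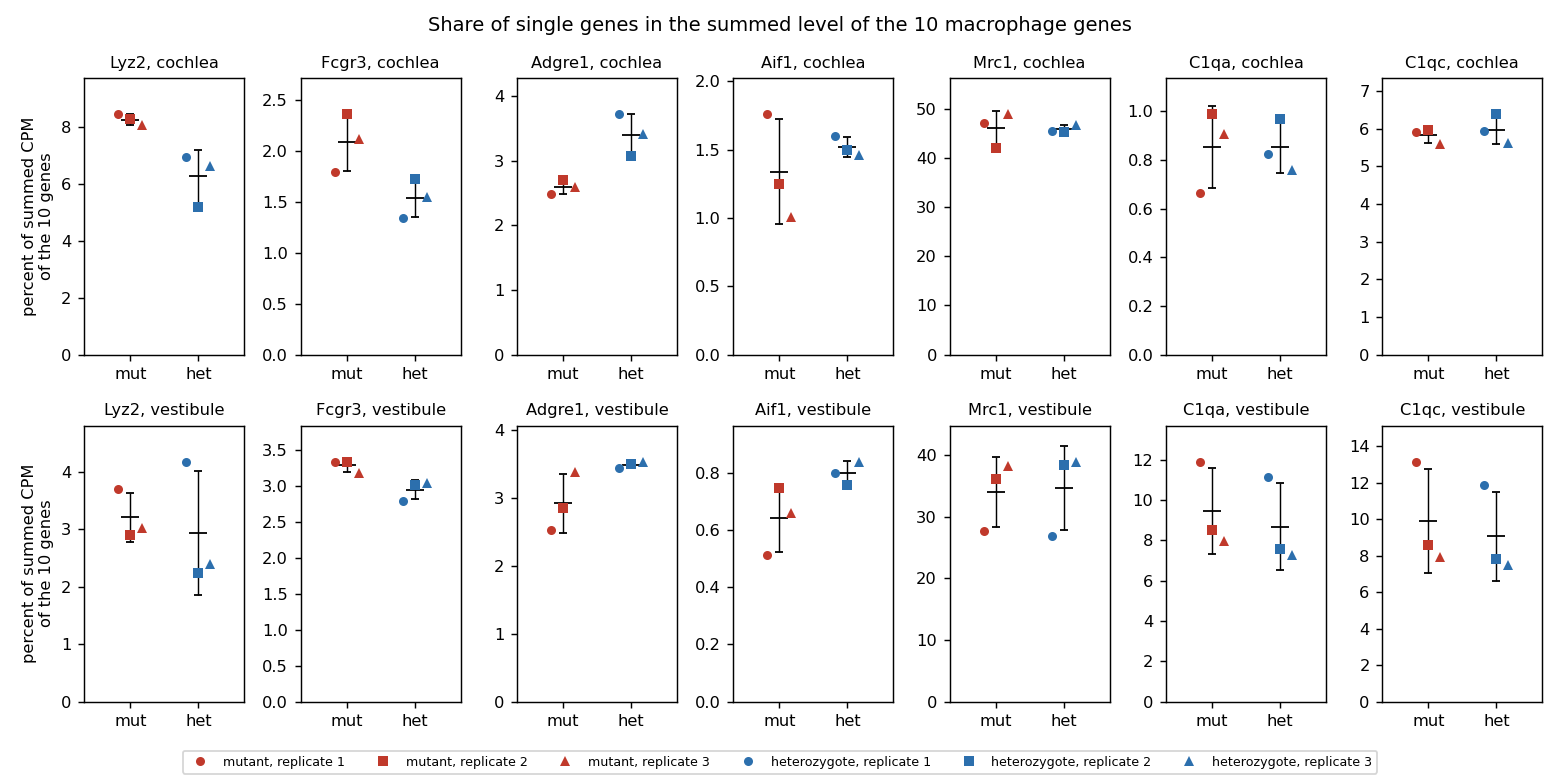
Share of 7 of the genes in the summed CPM of the 10 (percent, linear axes from 0), mutants in red left of heterozygotes in blue, with a symbol per replicate and black bars for mean ± SD (n = 3). The shares of Fcgr3 lie higher and those of Adgre1 lower in mutants in each organ, and replicate 1 (circles) is set apart in the vestibule for Mrc1, C1qa and C1qc.

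Across the 12 libraries, with each gene centred within its organ, the genes outside the 10 whose log2 level followed the mean of the 10 most closely were Tyrobp (Pearson r = 0.930), Apoe (0.922), Gbgt1 (0.918), Fcgrt (0.918), Cyth4 (0.915), Ehd4 (0.907), Pik3ap1 (0.900), Npc2 (0.900), Itgb5 (0.900) and Cmtm3 (0.900). Tyrobp encodes an adaptor of myeloid receptors, Apoe an apolipoprotein and Fcgrt the receptor that recycles antibodies. Within the 10, C1qb (r = 0.908) and Csf1r (0.837) followed the mean of the other 9 most closely, and Adgre1 (0.226) and Mrc1 (0.336) least. For Mrc1 r was 0.853 over the 6 cochlear libraries and -0.196 over the 6 vestibular ones. These correlations describe 12 libraries that share depth and scaling within an organ.

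Among transcription factors that specify macrophages, Spi1, which encodes PU.1, had 17.01 ± 2.98 CPM in mutant cochleae and 17.8 ± 1.69 CPM in heterozygous ones (log2 fold change -0.07, SE 0.19, limma adjusted p = 0.964). In the vestibule none of 14 tested was called, with a median of -0.16. Maf had 438 CPM in mutants and 483 CPM in heterozygotes there, and Spi1 153 CPM in mutants and 192 CPM in heterozygotes.

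Among 13 genes known from microglia, the macrophages of the brain, 1 was called higher and 1 lower in each organ, Sall1 and Olfml3. Sall1, a zinc finger factor, had 57.3 ± 4.71 CPM in mutant and 37.0 ± 3.75 CPM in heterozygous cochleae (0.62, SE 0.14, adjusted p = 0.0220). In the vestibule it had 94.4 ± 10.6 CPM in mutants and 53.1 ± 3.94 CPM in heterozygotes (0.81, SE 0.13, adjusted p = 0.0148). Both calls were lost without replicate 2 or 3 of either genotype (highest adjusted p 0.0949 and 0.0857). Olfml3, a secreted protein, had 49.8 ± 2.38 CPM in mutant and 147 ± 22.8 CPM in heterozygous cochleae (-1.53, SE 0.14, adjusted p = 1.94e-05), and 146 ± 7.39 CPM in mutant and 228 ± 18.8 CPM in heterozygous vestibules (-0.64, SE 0.12, adjusted p = 0.0241). The vestibular call of Olfml3 was lost without any library but heterozygous replicate 1 (highest adjusted p 0.137). Tissues other than macrophages express both genes. P2ry12 and Tmem119, which are more restricted to microglia, had 46.8 and 13.7 CPM in mutant and 40.3 and 12.5 CPM in heterozygous cochleae, and were not called.

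None of the genes of tissue-resident macrophages was called, among 11 tested in the cochlea with a median of 0.15 and 13 in the vestibule with a median of -0.29. F13a1, the A chain of coagulation factor XIII, had 353 ± 45.5 CPM in mutant and 274 ± 92.4 CPM in heterozygous cochleae (adjusted p = 0.483), and 1491 ± 379 CPM in mutant and 1601 ± 269 CPM in heterozygous vestibules (adjusted p = 0.861). Phagocytic and lysosomal genes, 19 tested in each organ, had no call either, with medians of 0.16 in the cochlea and -0.20 in the vestibule. Ctsb, cathepsin B, had 592 ± 25.3 CPM in mutant and 539 ± 81.3 CPM in heterozygous cochleae, and 1827 ± 84.0 CPM in mutant and 2119 ± 576 CPM in heterozygous vestibules. With replicate numbers as pairs, 3 of the 19 were called higher in the cochlea and 4 of the 19 lower in the vestibule. Of all tested genes, that fit called 4.21% higher in the cochlea and 12.8% lower in the vestibule.

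Ligands and partners of the 10 genes were at low levels or did not pass the test, with few exceptions. Csf1 and Il34, the ligands of CSF1R, had 12.1 and 1.91 CPM in mutant and 11.4 and 2.60 CPM in heterozygous cochleae. Cx3cl1, fractalkine, had 3.70 CPM in mutant and 4.29 CPM in heterozygous cochleae. These ligands stood in a list with genes of TGF-beta and of other growth factors, of which 10 were tested in each organ. The only cochlear call in it was Tgfbr1, a receptor of TGF-beta rather than of CSF1, IL34 or fractalkine. Tgfbr1 had 269 ± 13.7 CPM in mutants and 153 ± 6.96 CPM in heterozygotes (0.81, SE 0.11, adjusted p = 0.000672). None of the list was called in the vestibule. Among 16 other complement genes tested in the cochlea Calr, an endoplasmic reticulum chaperone that binds C1q, was called lower, with 180.2 ± 18.5 CPM in mutants and 253 ± 5.21 CPM in heterozygotes (-0.49, SE 0.12, adjusted p = 0.0330). That call was lost without any single library but mutant replicate 3, and without a filter (highest adjusted p without a single library 0.140). Of 17 complement genes tested in the vestibule none was called. Fcgr2b was the only one of 9 tested Fc receptor genes called in the cochlea. All 9 fold changes were positive there, against 59.2% of all tested genes, with a median of 0.35. In the vestibule none of 10 was called. All 10 fold changes were negative there, with a median of -0.20, while 41.5% of all tested genes had a positive one. Fcer1g, the signalling chain that partners the Fcgr3 product, had 113 ± 12.1 CPM in mutant and 104 ± 13.7 CPM in heterozygous cochleae (adjusted p = 0.857), and 108 ± 16.8 CPM in mutant and 137 ± 52.7 CPM in heterozygous vestibules (adjusted p = 0.655).

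Antigen presentation genes of class II were called lower in mutant vestibules, 3 of 9 tested, with a median of -0.65 and no positive fold change. H2-Eb1 had 9.18, 14.2 and 9.91 CPM in mutants, against 28.9, 27.0 and 29.8 CPM in heterozygotes (-1.31, SE 0.20, adjusted p = 0.0104). H2-Ab1 had 15.5 ± 2.81 CPM in mutants and 31.2 ± 3.41 CPM in heterozygotes (-0.98, SE 0.19, adjusted p = 0.0273), and Cd74, the invariant chain, 27.6 ± 4.04 CPM in mutants and 52.2 ± 8.95 CPM in heterozygotes (-0.89, SE 0.18, adjusted p = 0.0341). These calls did not withstand the loss of a library: that of H2-Eb1 was lost without mutant replicate 3 or heterozygous replicate 2 (highest adjusted p 0.0539), and those of H2-Ab1 and Cd74 without any 1 of the 6 (highest 0.101 and 0.142) and without a filter on low values (0.0598 and 0.0676). The paired fit called 5 of the 9 lower, against 12.8% of all tested genes. The summed level of the list was 103 to 142 CPM in mutant and 179 to 213 CPM in heterozygous vestibules. In the cochlea none of the 9 was called, and the sums of 48.5 to 77.7 CPM in mutants and 41.5 to 75.9 CPM in heterozygotes overlapped. Inflammatory genes, 7 tested in each organ, had no call in either. Their sums were 90.1 to 111 CPM in mutant and 164 to 174 CPM in heterozygous vestibules, and 26.2 to 39.1 CPM in mutant and 26.0 to 42.4 CPM in heterozygous cochleae.

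**Figure D5:**
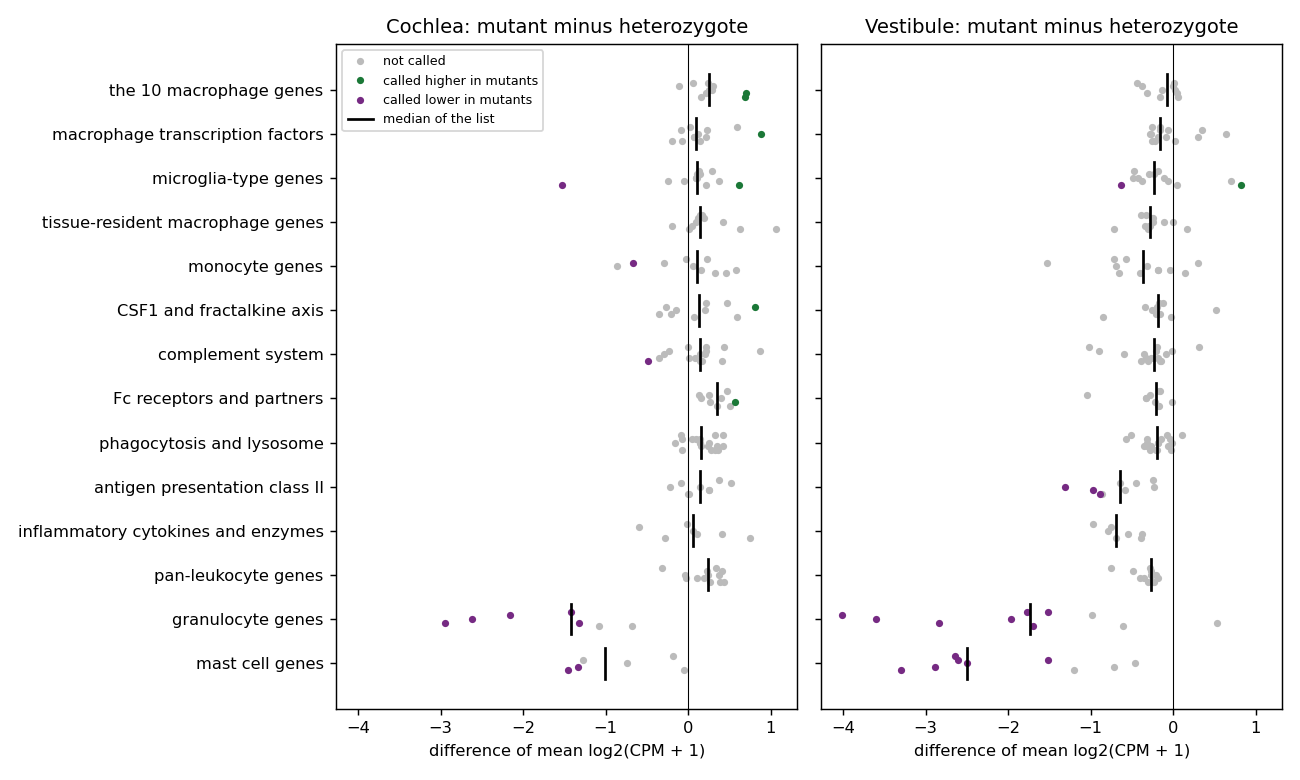
Log2 fold change, mutant minus heterozygote, of every tested gene of 14 groups (x axis, log2(CPM + 1) scale), 1 point per gene, green where called higher in mutants and purple where called lower, with a black line at the median of the group. The medians of the 10 macrophage genes are 0.25 in the cochlea and -0.07 in the vestibule, and the granulocyte and mast cell groups lie far to the left in each organ.

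Markers of other cells moved with genotype beside the 10 genes, and their part in the values above was not tested. Granulocyte markers summed to 7.48 to 13 CPM in mutant and 36.7 to 65.6 CPM in heterozygous cochleae, with 5 of 7 tested called lower, and to 17.4 to 23.7 CPM in mutant and 91.7 to 144.5 CPM in heterozygous vestibules, with 7 of 10 called lower. Leaving out single libraries gave 4 to 6 cochlear calls and 4 to 7 vestibular ones, with 4 in the vestibule without replicate 2 or 3 of either genotype. Ngp and Ltf, proteins of neutrophil granules, were at or below 0.2499 CPM in every mutant library of both organs. Lyz2 is also expressed by granulocytes, and it rose in the cochlea where these markers fell. Which cells its reads came from was not tested. Mast cell markers summed to 91.4 to 143 CPM in mutant and 134 to 189 CPM in heterozygous cochleae, with 2 of 6 called lower, and to 257 to 491 CPM in mutant and 1741 to 1999 CPM in heterozygous vestibules, with 6 of 9 called lower. Without cochlear mutant replicate 1 or heterozygous replicate 2 there was 1 mast cell call in the cochlea, and without vestibular heterozygous replicate 2 or 3 there were 3 in the vestibule.

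Genes shared by all leukocytes, 13 tested in each organ, had no call. Their sums were 874 to 996 CPM in mutant and 772 to 965 CPM in heterozygous cochleae, and 1747 to 1901 CPM in mutant and 1936 to 2686 CPM in heterozygous vestibules. The sum of the 10 macrophage genes over this leukocyte sum was 3.02 to 3.33 in mutant and 2.79 to 2.93 in heterozygous cochleae, and 3.89 to 4.21 in mutant and 3.31 to 3.75 in heterozygous vestibules, higher in all mutant libraries of each organ. In the vestibule the leukocyte sum was lower in all mutant libraries. The sum of the 10 genes overlapped there, with 6789 to 8008 CPM in mutants (mean 7320) and 7164 to 8894 CPM in heterozygotes (mean 7941). The ratio was not tested. Hair cell markers, the cells the pull-down was aimed at, summed to 3677 to 4395 CPM in mutant and 5627 to 6796 CPM in heterozygous cochleae, with 7 of 14 called lower and none higher (11 lower and 1 higher with replicate numbers as pairs). In the vestibule they summed to 11061 to 11692 CPM in mutants and 10053 to 11128 CPM in heterozygotes, with 2 called higher and 1, Gfi1, lower (6 higher and 1 lower with replicate numbers as pairs). After median-of-ratios rescaling the cochlear fold change of Fcgr3 was 0.66 and that of Lyz2 0.64. Mesenchyme markers, 9 tested in each organ, had no call in the cochlea, and 2 of them, Col1a1 and Col3a1, were called lower in the vestibule, with sums of 1012 to 1381 CPM in mutants and 1863 to 2370.0 CPM in heterozygotes. The paired fit called all 9 lower there, against 12.8% of all tested genes. Leaving out single libraries gave 1 to 3 of these mesenchyme calls, and Col1a1 was lost without any library but heterozygous replicate 1 (highest adjusted p 0.122). Osteoclast markers, from cells of the same lineage as macrophages, summed to 101 to 134 CPM in mutant and 146 to 165 CPM in heterozygous cochleae. Of 6 tested, 1 was called, Nfatc1, lower by 0.89 on the log2 scale (limma adjusted p = 0.000645). Nfatc1 had 54.3 CPM in mutants and 102 CPM in heterozygotes, a larger difference than that of the mean sums (120 and 155 CPM). The fold changes of the 5 others were positive, against 59.2% of all tested genes, and the median of the list was 0.30. None of 8 osteoclast markers was called in the vestibule.

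Monocyte genes gave 1 call of 10 in the cochlea, Vcan, an extracellular matrix proteoglycan that other cells make too, with 184 CPM in mutants and 295 CPM in heterozygotes (-0.67, adjusted p = 0.00948). That call was lost without mutant replicate 1 (0.0669), and none of 12 was called in the vestibule. Dendritic cell, lymphocyte, erythroid, endothelial and supporting cell genes had no call in either organ without the pairing. With the pairing, 12.8% of all genes tested in the vestibule were called lower and 10.5% higher. In the cochlea these shares were 4.31% and 4.21%. Several of the counts that follow are near or below these shares. In the vestibule the paired fit called 5 of the 13 microglia genes lower and 2 higher, 3 of the 10 supporting cell genes lower and 2 higher, and 2 of the 10 genes listed with CSF1, fractalkine and TGF-beta lower and 1 higher. It called lower, with none higher, 5 of the 13 leukocyte genes, 4 of the 7 inflammatory genes, 3 of the 12 monocyte genes, 6 of the 8 endothelial genes, 2 of the 17 complement genes, 2 of the 8 osteoclast genes and 1 each of the tissue-resident macrophage, Fc receptor and lymphocyte genes. In the cochlea it called higher, with none lower, 2 of the 9 Fc receptor genes, 2 of the 10 genes listed with CSF1, fractalkine and TGF-beta and 1 each of the tissue-resident macrophage and leukocyte genes. It called 1 complement gene and 1 osteoclast gene higher in the cochlea, beside 1 lower in each of these lists.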

How the data were processed

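Ribosome-bound RNA from 12 libraries was read from the deposited tables of CPM (read counts scaled to a common library total), made by the authors from reads aligned with TopHat to GRCm38 per the submitters' processing notes. The counting tool, its strand setting and its annotation are not named in the sources used. Per the labels' protocols, cochlear libraries used the NuGEN Ovation Ultralow kit and vestibular ones NEBNext Ultra Directional. Every CPM value was a whole number of reads (100% within a tolerance of 1e-06), where 1 read equalled 0.107 to 0.133 CPM in cochlear and 0.0340 to 0.0528 CPM in vestibular libraries. Of each library's reads, 0.119% to 0.729% lay outside the listed genes.

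A gene that reached 1 CPM in 3 or more libraries of an organ was tested on log2(CPM + 1) with limma 3.58.1 in R 4.3.3, with Benjamini-Hochberg adjustment over all genes tested and a threshold of 0.05. The fold on this scale understates changes of low genes. The organ difference was an interaction term over genes tested in both organs. On the recovered reads edgeR 4.0.16 called 813 genes in the cochlea and 524 in the vestibule, and DESeq2 1.42.0 was run too. Other settings were pseudocounts of 0.25 and 4, no filter and a filter of 5 CPM, median-of-ratios and quantile scaling, replicate numbers as a block, and each library left out with the tested genes kept. Same-numbered libraries of the genotypes deviated together (cochlear r 0.226 to 0.420, vestibular r 0.508 to 0.766, over 3 pairs each), so the numbers were taken to pair them. The series calls its libraries independent biological triplicates. The p-values measure the spread between these libraries.

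The 10 genes and 22 further marker lists were chosen with earlier results of these data known. The text names all 10, each called list gene up to 4 per list (otherwise the 4 with the smallest p), up to 2 uncalled genes with the highest CPM where none was called, and the 10 genes most like the members. Spi1 in the cochlea, P2ry12, Tmem119, Csf1, Il34, Cx3cl1 and Fcer1g were named outside this rule, after their values were seen. Some list genes are not reported here. Tables and figures were made with Python 3.11.15, pandas 2.3.3, numpy 2.4.6 and matplotlib 3.10.9, and the tests were tested on simulated data.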

Additional observations from a re-analysis of the deposited data

Results flagged for a closer look

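For 3 of the 10 genes the cochlear change exceeded the vestibular change in a test of that difference with replicate numbers as pairs. The cochlear minus vestibular log2 fold change was 0.66 for Fcgr3 (limma adjusted p = 0.00547), 0.62 for Lyz2 (0.0303) and 0.53 for Cx3cr1 (0.0497). Without the pairs none of the 3 passed (adjusted p = 0.173, 0.445 and 0.388).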

How the results depend on the processing

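In the cochlea 152 of 160 values of single genes under other settings kept their direction and side of the threshold. All 7 lost calls were of Fcgr3, which left 1 of the 10 genes called with no filter, with edgeR and without both replicate 3 libraries, and 1 to 2 leaving out single libraries. Leaving out single libraries moved the cochlear fold change of Aif1 between -0.18 and 0.18. In the vestibule 137 of 160 values were kept. C1qb changed sign to 0.036 with median-of-ratios rescaling, 0.022 with edgeR, 0.021 with DESeq2 and 0.062 without both replicate 1 libraries, and Lyz2 to -0.0039 with edgeR and -0.0044 with DESeq2. Single libraries moved the vestibular fold change of C1qa between -0.17 and 0.30, C1qb between -0.11 and 0.10, C1qc between -0.20 and 0.30, Lyz2 between -0.13 and 0.43, Fcgr3 between -0.038 and 0.11 and Mrc1 between -0.25 and 0.019. They moved the organ difference of C1qa between -0.040 and 0.42 and of C1qc between -0.059 and 0.44. The cause was not tested.

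With the replicate block, 1532 genes were called in the cochlea against 794 without it, 3634 in the vestibule against 546, and 1955 for the organ difference against 461. Of the 10 genes the block called 3 in the vestibule and 3 for the organ difference, and changed no other call among them. The vestibular count was 358 with no filter, 1234 with DESeq2, 863 without both replicate 1 libraries and 226 to 522 leaving out single libraries, the lowest without heterozygous replicate 2. No vestibular member was called without any single library (0 to 0). The organ difference counted 815 genes with DESeq2, 280 without both cochlear replicate 3 libraries and 302 to 453 leaving out single libraries. The cochlear count was 546 to 801 leaving out single libraries. C1qa had as few as 140 reads in a cochlear library, which limits its precision.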

Other observations

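The make-up of the C1q transcripts differed between the organs in every library. C1qa over C1qb per kb of exon sequence was 0.117 to 0.158 over the 6 cochlear libraries and 0.856 to 1.25 over the 6 vestibular ones, while C1qc over C1qb was 0.491 to 0.562 in cochlear and 0.478 to 0.713 in vestibular libraries. Organ and library kit cannot be told apart in these values, and they were not tested.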
